A study of Mus musculus with 6 samples.

Results

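The genes described here are the replication-dependent histone genes of the mouse, taken as every row of the count table whose symbol begins with Hist1h, Hist2h, Hist3h or Hist4h. There were 70 such genes among 34573 in the table: 56 of the Hist1 cluster on chromosome 13, 10 of the Hist2 cluster on chromosome 3, 3 of the Hist3 cluster on chromosome 11 and 1, Hist4h4, on chromosome 6. Only 18 of the 70 reached 10 reads in at least 3 libraries, and 52 did not. By class, 6 genes encode linker histone H1, 20 encode H2A, 19 H2B, 12 H3 and 13 H4, and 3 of these (Hist1h2aj, Hist1h2al and Hist3h2bb-ps) are annotated as pseudogenes. The symbol rule also takes in Hist1h1t, Hist1h2aa and Hist1h2ba, which are known as histones of the male germ line.

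RNA was sequenced from DN3 thymocytes, an early stage of T cell development sorted as CD4-CD8-CD44-CD25+, of mice aged 6 to 8 weeks on a mix of C57BL/6 and 129. The 3 L1 KO samples are labelled Cre+ Rpl22l1 f/f and the 3 WT samples Cre- Rpl22l1 f/f, so both groups carry the floxed Rpl22l1 alleles and only L1 KO carries Cre. The Cre is Vav-Cre, which is driven by a promoter active throughout blood-forming cells, and effects of Cre itself and of the deletion cannot be told apart. The series text gives Cre and genotype the other way round, and the sample labels were followed. The sources used here do not tell whether each sample is from its own mouse, and the p-values measure only how far these samples spread, which may be technical.

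Replication-dependent histone genes supply the histones that package new DNA in S phase. Most have no introns, and their mRNAs end in a conserved stem-loop instead of a poly(A) tail. The stem-loop is bound by SLBP, the mRNAs are made mainly in S phase under the activator NPAT, and they are degraded when replication ends. DN3 thymocytes include cells that begin to divide rapidly once they pass beta-selection, the checkpoint for a working T cell receptor beta chain.

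The stem-loops were read from GENCODE transcripts of GRCm38 and are shown because they mark the mRNAs of this family. The rule searched for 16 bases: 6 bases that start with GG, a loop of 4 that starts with TT, and the reverse complement of the first 6. It was met in 44 of the 70 genes, against 0.276% of 58725 coding transcripts of other genes. The most frequent form was shared by 26 genes of the H1, H2A, H2B and H3 classes, while the 11 H4 genes with a match had 3 other forms. The following lines show 1 gene of each class, in DNA letters from 5′ to 3′, with the stem-loop in capitals.
Hist1h1c: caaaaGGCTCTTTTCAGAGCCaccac
Hist1h2ae: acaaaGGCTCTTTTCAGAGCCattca
Hist1h2bj: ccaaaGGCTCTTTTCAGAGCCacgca
Hist1h3c: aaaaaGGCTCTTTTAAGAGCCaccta
Hist1h4i: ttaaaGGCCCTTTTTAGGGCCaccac
Annotated transcripts differed in how far they went on after it. The Hist1h2bj transcript stopped 23 bases past the stem-loop and that of Hist1h3c 74 bases past it. The transcripts of Hist1h2ae, Hist1h4i and Hist1h1c ran on for 151, 330 and 840 bases. No match was found in the 2620-base transcript of Hist2h2be or in that of Hist1h2bc.

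Rpl22l1 itself was at 18.6, 20 and 26.1 CPM (read counts scaled to library size) in L1 KO 1 to 3, against 86.3, 123.2 and 117.9 CPM in WT 1 to 3. It fell by 2.35 ± 0.18 on the log2 scale, with an edgeR adjusted p of 0.00103. All levels are CPM after TMM scaling, a correction for library composition. Libraries held 13887672 to 28128186 reads in genes in L1 KO and 19570475 to 21571810 in WT, so that 3 reads corresponded to 0.107 to 0.216 CPM. The 12 DN3 markers summed to 7515 to 7847 CPM in L1 KO and 7429 to 7824 CPM in WT. Markers of double positive and later T cells summed to 71.6 to 77.2 CPM in L1 KO, against 133 to 168 CPM in WT, most of the WT sum being Ccr9, while Cd4 averaged 1.60 CPM in L1 KO and 1.73 CPM in WT. Other lists differed in part. Early progenitor markers summed to 31.5 to 41.7 CPM in L1 KO and 50.6 to 65.1 CPM in WT. B lineage markers summed to 259 to 302 CPM in L1 KO and 186 to 249 CPM in WT, nearly all of it Ighm transcripts, with Pax5 and Ms4a1 at 0 in all 6 libraries. Myeloid and dendritic markers summed to 25.6 to 32.6 CPM in L1 KO and 28.0 to 32.2 CPM in WT, and erythroid and platelet markers to 0.805 to 3.70 CPM in L1 KO and 3.001 to 5.90 CPM in WT. Innate lymphoid markers summed to 30.8 to 41.7 CPM in L1 KO and 35.9 to 39.9 CPM in WT, and epithelial and stromal markers to 116 to 138 CPM in L1 KO and 102 to 123 CPM in WT. At an edgeR adjusted p under 0.05, 2.14% of all 13729 tested genes rose and 2.43% fell, and with the number in the sample title as a block 20.3% were called. In edgeR 23.4% had an unadjusted p under 0.05, and DESeq2 called 8.90%. Of 12 tested DN3 markers 0 passed without the block, with 6 at an unadjusted p under 0.05 and 2 called by DESeq2, while with the block 2 rose and 4 fell. Of the later T cell markers 1 of 8 rose (Klf2) and 1 fell (Ccr9), of early progenitor markers 2 of 5 fell, of B lineage markers 1 of 2 fell (Cd79b), of myeloid and dendritic markers 2 of 6 fell. Of epithelial and stromal markers 1 of 3 rose and 1 fell, while 0 of 3 erythroid and platelet and 0 of 2 innate lymphoid markers passed, with 1 and 0 at an unadjusted p under 0.05. With the block 2 later T cell markers rose and 1 fell, 1 early progenitor marker rose and 2 fell, 3 myeloid and dendritic markers fell and 1 erythroid and platelet marker fell, and DESeq2 also called 1 erythroid and platelet marker lower. The part of such differences in the histone results was not tested.

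Histone genes gave few reads in every library. All 70 together had 1190, 1951 and 824 reads in L1 KO 1 to 3, against 1162, 947 and 1154 in WT 1 to 3. Over the 6 libraries the median gene had 39.5 reads, 5 genes had none (Hist1h2aa, Hist1h2ba, Hist1h2br, Hist2h2aa1 and Hist2h3c1), and 50 had at least 1 read in every library. Of the 50-base windows of Hist2h2aa1 and Hist2h3c1, 0% were absent from all other annotated genes' transcripts, and of those of Hist1h2br 11.3%. A count of 0 therefore does not show that these 3 genes were silent. For Hist1h2aa and Hist1h2ba the share was 76.2% and 61.8%. Reads were concentrated: Hist2h2be took 17.6% of all histone reads, Hist1h4i 11.2% and Hist1h1c 8.11%, and the 6 genes with most reads took 53.8%. Just inside the rule of 10 reads in 3 libraries, Hist1h4d had 16, 22 and 10 reads in L1 KO and 5, 9 and 7 in WT. Just outside it, Hist1h2bl had 13, 11 and 8 reads in L1 KO and 1, 2 and 6 in WT.

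Levels were low per length too, though the counts leave out reads that aligned to several places while the whole exon length was used. Of the 70 genes 36 had under 50% of their 50-base windows to themselves, so their levels may be understated by an unknown amount. The highest, Hist1h4i, stood at 10.1 CPM per kilobase of exon in L1 KO and 7.30 in WT, and the median over the 70 genes was 0.456 CPM per kilobase over all libraries. By contrast H3f3a, which encodes the replacement H3 variant made throughout the cell cycle from polyadenylated mRNA, stood at 186 CPM per kilobase in L1 KO and 188 in WT. H2afz, the gene of the variant H2A.Z, stood at 275 CPM per kilobase in L1 KO and 241 in WT. These are among the highest of 11 listed replication-independent histone genes, and the contrast does not hold for all of them. H1fx stood at 4.33 CPM per kilobase in L1 KO and 6.25 in WT, and H2afy2 at 0.523 and 0.913, both below Hist1h4i. Cenpa stood at 13.5 and 10.4. Of 21 listed other RNAs known to lack a poly(A) tail, only 9 were found in the count table. These 9 summed to 8.86 to 9.37 CPM in L1 KO and 7.36 to 9.41 CPM in WT. Of the 3 tested, 0 passed in edgeR, DESeq2 or limma-voom and 0 had an unadjusted p under 0.05 in edgeR. Snora73b, a small nucleolar RNA gene, had a log2 fold change of 0.16 ± 0.13 and Snord17, another, 0.11 ± 0.25. The third, Rnu73b, had 22, 0 and 15 reads in L1 KO 1 to 3 and 20, 0 and 23 reads in WT 1 to 3, with both libraries numbered 2 at 0. The labels used here do not say how RNA was selected for the libraries, and the part of that selection in these levels was not tested.

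Grouped by annotated transcript end, 22 genes ended within 100 bases of the stem-loop, 22 went on for at least 100 bases past it, and 26 had no match. The last group is mixed. It holds the pseudogenes, the 2620-base Hist2h2be and short annotated transcripts such as those of Hist1h4k (312 bases) and Hist1h2bl (381 bases). A stem-loop beyond the annotated end would not be found, so no match does not show that the mRNA lacks one. Genes that went on past the stem-loop took 49.7% of all histone reads and those without a match 34.1%, against 16.2% for those that ended near it. Median levels were 0.483, 0.265 and 0.218 CPM in the same order. Per kilobase the order of the groups was not kept, at 0.252, 0.559 and 0.444 CPM. The 5 tested genes that end near the stem-loop (Hist1h2bj, Hist1h3c, Hist1h2ag, Hist1h2bk and Hist1h3a) all had positive log2 fold changes, with a median of 0.57, and among these Hist1h2bj passed the test described next. All 5 belong to the Hist1 cluster, where 15 of 16 tested genes were positive over all transcript ends. Transcript end and cluster therefore cannot be told apart here, and neither grouping was tested. Hist1h3a turned negative, at −0.34, without L1 KO 2. Of the 10 tested genes that go on past it 6 were positive and 4 negative, with a median of 0.46, and of the 6 without a match 4 were positive and 2 negative, with a median of 0.19. The 22 genes that end near the stem-loop summed to 8.40, 14.01 and 11.9 CPM in L1 KO and 5.28, 6.00 and 8.55 CPM in WT, with only L1 KO 1 below the highest WT library. The 22 that go on past it summed to 20.6, 38.3 and 31.2 CPM in L1 KO and 22.7, 23.1 and 31.1 CPM in WT, and there the groups overlapped. The 26 without a match averaged 17.7 ± 0.728 CPM in L1 KO and 20.4 ± 4.03 CPM in WT, also with overlap.

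**Figure D1:**
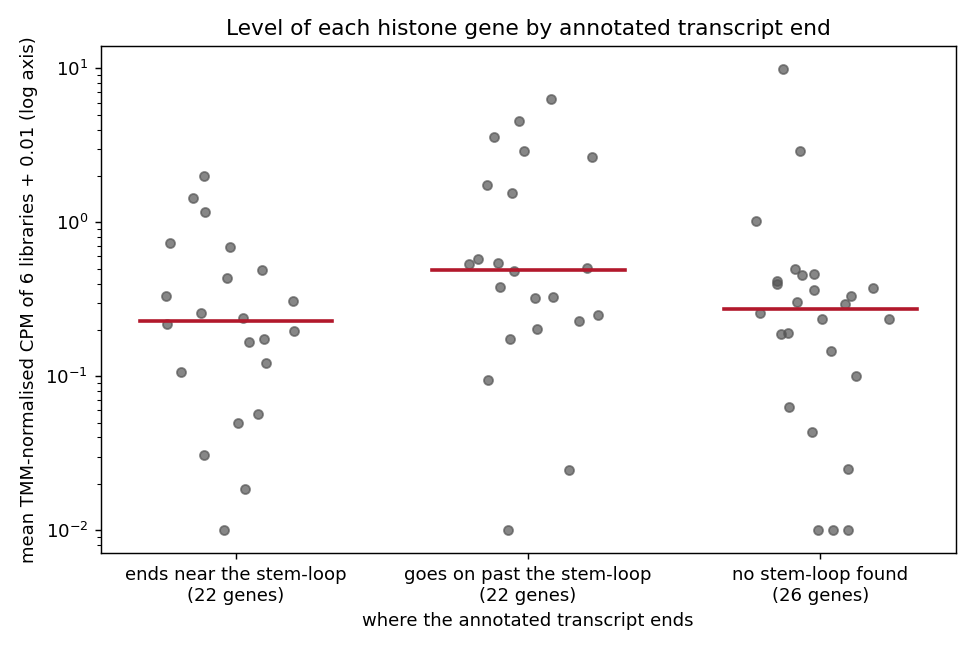
Mean level over the 6 libraries of each of the 70 histone genes, as TMM-normalised CPM plus 0.01 on a log axis, by where its annotated transcript ends. Each point is a gene and the red line is the group's median. All 3 groups range from 0 reads, at the foot of the plot, to at least 1.997 CPM, and Hist2h2be at 9.91 CPM is the highest point.

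In the comparison of L1 KO with WT, 1 histone gene rose, none fell, and 20 of the 21 that could be tested did not pass. The test was edgeR's quasi-likelihood test on all 13729 genes that passed a count filter, at a Benjamini-Hochberg adjusted p under 0.05. Over all tested genes 4.57% passed. Of the 21 histone genes 4 were higher and 1 lower at an unadjusted p under 0.05, in a table where 23.4% of genes were under it. DESeq2 called 1 higher and 1 lower, beside 8.90% of all tested genes, and limma-voom called none. With the replicate number as a block, 3 rose (Hist1h2bj, Hist1h4i and Hist1h2ae) and 1 fell (Hist2h2be), in a fit that called 20.3% of all genes. Log2 fold changes ranged from −0.78 to 1.24 with a median of 0.46, against −0.01 over all tested genes. In 6 of the 21 all L1 KO libraries lay above all WT libraries and in 1 below, beside 28.4% of all tested genes, 13.8% above and 14.7% below. A gene with enough reads in 1 group alone could pass the count filter, as Hist1h4d did through L1 KO. These counts, which include Hist1h4d, therefore describe the tested genes and not all 70. In bulk RNA, a difference in the number of cells in S phase and one in histone mRNA per cell cannot be told apart.

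Hist1h2bj, which encodes a core histone H2B, was the gene that rose. It had 1.44, 2.43 and 2.12 CPM in L1 KO 1 to 3, from 37, 67 and 29 reads, against 0.682, 0.975 and 0.865 CPM in WT 1 to 3, from 15, 20 and 17 reads. The lowest L1 KO library lay above the highest WT library. On the log2 scale it rose by 1.24 ± 0.29 (SE), and the edgeR adjusted p was 0.0466. That call was lost when any library but L1 KO 1 was left out: the adjusted p was 0.208 without L1 KO 2, 0.139 without L1 KO 3, 0.124 without WT 1, 0.137 without WT 2 and 0.107 without WT 3. The log2 fold change stayed between 1.06 and 1.45 with any single library left out. The adjusted p was 0.0719 with limma-voom and 0.0554 without robust fitting. Hist1h2bj lies on chromosome 13 from 22043214 to 22043676 of GRCm38, plus strand, in a single exon. Of the 50-base windows of its transcript 40.6% occurred in no other annotated gene's transcript, so its count rests on part of its length.

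**Figure D2:**
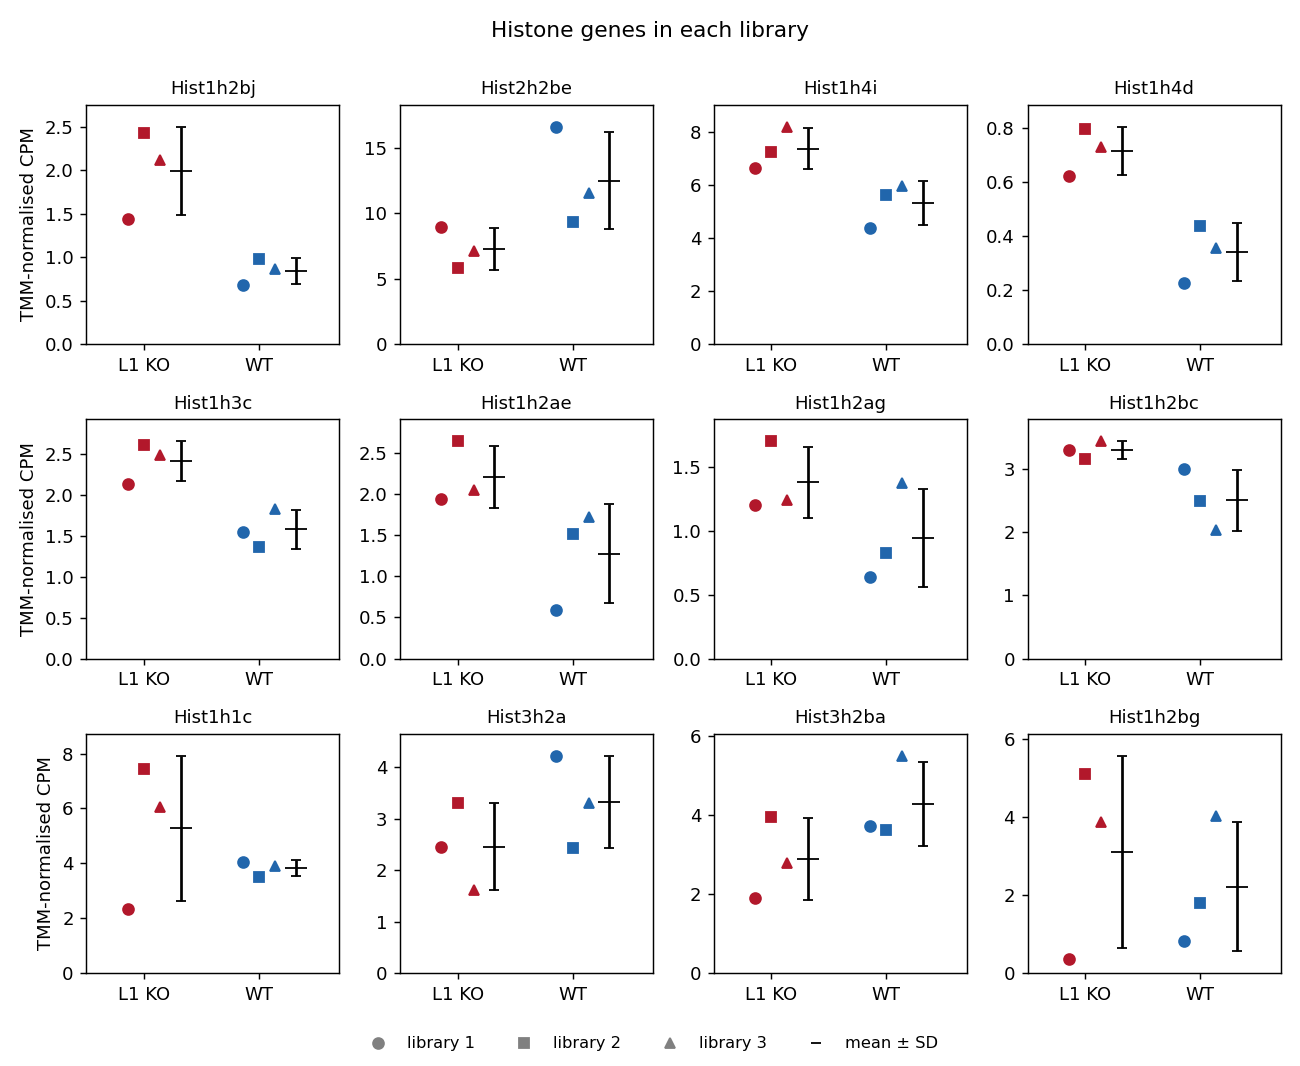
TMM-normalised CPM of 12 histone genes in each library, with L1 KO left of WT, 1 symbol for each library number, and black bars for the mean ± SD of 3 libraries. L1 KO libraries lie above WT libraries for Hist1h2bj, Hist1h4i, Hist1h4d, Hist1h3c, Hist1h2ae and Hist1h2bc, and below them for Hist2h2be.

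Among the H2A genes, which encode a core histone that pairs with H2B, 0 of 4 tested genes passed in edgeR, DESeq2 or limma-voom, and 0 had an unadjusted p under 0.05 in edgeR. Hist1h2ae had 1.95, 2.65 and 2.05 CPM in L1 KO 1 to 3 and 0.591, 1.51 and 1.73 CPM in WT 1 to 3. WT 1 was the lowest library and the groups did not overlap. Its log2 fold change was 0.81 ± 0.36, with an edgeR adjusted p of 0.215, or 0.0496 with the replicate block. Hist1h2ag had 1.21, 1.71 and 1.24 CPM in L1 KO and 0.637, 0.829 and 1.37 CPM in WT, with WT 3 inside the range of L1 KO. Hist3h2a, a member of the small cluster on chromosome 11, had 2.45, 3.30 and 1.61 CPM in L1 KO and 4.23, 2.44 and 3.31 CPM in WT. The log2 fold changes of these last 2 genes were 0.57 ± 0.33 and −0.41 ± 0.29, with adjusted p of 0.337 and 0.431. Predicted genes lie on the opposite strand of Hist1h2ae, Hist1h2ag and Hist3h2a, and Trim17 overlaps Hist3h2a on its own strand. The strand setting and annotation of the counting are not given. Reads in a stretch shared with an opposite-strand partner may have been added to these counts or left out as ambiguous, and which cannot be told.

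The H2B genes held both the highest and the lowest log2 fold change of the 21 tested histone genes. Hist2h2be, on chromosome 3, had 8.99, 5.81 and 7.10 CPM in L1 KO 1 to 3, against 16.6, 9.32 and 11.6 CPM in WT 1 to 3. The groups did not overlap, and WT 1 was the highest library. With a log2 fold change of −0.78 ± 0.24 the gene did not pass in edgeR, at an adjusted p of 0.100, while the replicate block gave −0.77 ± 0.12 and 0.00129. DESeq2 gave 0.0227, and edgeR without L1 KO 1 gave 0.0386. The gene did not pass with limma-voom, at 0.115, or in edgeR with any other single library left out. Those adjusted p were 0.308 without L1 KO 2, 0.268 without L1 KO 3, 0.216 without WT 1, 0.121 without WT 2 and 0.156 without WT 3. All 50-base windows of its transcript (100%) occurred in no other annotated gene's transcript. Hist1h2bc had 3.31, 3.16 and 3.44 CPM in L1 KO and 3.001, 2.49 and 2.04 CPM in WT, without overlap, and a log2 fold change of 0.39 ± 0.20 with an adjusted p of 0.277. Hist3h2ba had 1.91, 3.96 and 2.78 CPM in L1 KO and 3.73, 3.61 and 5.49 CPM in WT, where L1 KO 2 lay among the WT libraries, and −0.56 ± 0.29 with an adjusted p of 0.275. The counts of Hist2h2bb are uncertain, since its whole annotated transcript is also part of an overlapping gene.

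No tested H3 gene passed in edgeR, DESeq2 or limma-voom, and 1 of 4 had an unadjusted p under 0.05 in edgeR. H3 and H4 form the core on which each nucleosome is built. Hist1h3c had 2.14, 2.61 and 2.49 CPM in L1 KO and 1.55, 1.37 and 1.83 CPM in WT, with all L1 KO libraries higher, and a log2 fold change of 0.61 ± 0.22 with an adjusted p of 0.137. Hist1h3e had 0.428, 0.835 and 0.659 CPM in L1 KO and 0.409, 0.146 and 0.509 CPM in WT, where WT 3 exceeded L1 KO 1. Hist1h3a had 0.467, 1.23 and 0.512 CPM in L1 KO and 0.409, 0.390 and 1.07 CPM in WT, a spread within each group wider than the difference between them. Their log2 fold changes were 0.84 ± 0.48 and 0.31 ± 0.53, with adjusted p of 0.322 and 0.762.

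None of the 4 tested H4 genes passed in edgeR, DESeq2 or limma-voom, and 2 had an unadjusted p under 0.05 in edgeR. Hist1h4i, the H4 gene with most reads, had 6.65, 7.26 and 8.19 CPM in L1 KO 1 to 3 and 4.37, 5.61 and 5.95 CPM in WT 1 to 3. All L1 KO libraries were higher. The log2 fold change was 0.47 ± 0.16 with an adjusted p of 0.128, and 0.48 ± 0.14 with 0.0306 in the fit with the replicate block. Hist1h4d had 0.623, 0.798 and 0.732 CPM in L1 KO and 0.227, 0.439 and 0.356 CPM in WT, again without overlap, and 1.07 ± 0.37 with an adjusted p of 0.125. With 16, 22 and 10 reads in L1 KO and 5, 9 and 7 in WT, it reached 10 reads in L1 KO alone. It passed the count filter only through the group where it was higher, so its separation and unadjusted p are no support for a rise. Hist4h4, the single gene of its cluster, had 0.311, 0.544 and 0.659 CPM in L1 KO and 0.273, 0.293 and 1.12 CPM in WT, with WT 3 the highest library of all.

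Linker histone H1 binds the DNA between nucleosomes and compacts chromatin, and 1 of its 6 genes, Hist1h1c, had enough reads to be tested. Hist1h1c had 2.33, 7.44 and 6.07 CPM in L1 KO 1 to 3, against 4.05, 3.51 and 3.92 CPM in WT 1 to 3. L1 KO 1 was the lowest and L1 KO 2 the highest of the 6 libraries. Its log2 fold change was 0.46 ± 0.38 with an edgeR adjusted p of 0.507. Leaving out L1 KO 1 gave 0.84 ± 0.18 with an adjusted p of 0.0132, in a fit that called 2177 genes against 628 in all 6 libraries. Leaving out L1 KO 2 gave 0.10 ± 0.37 with an adjusted p of 0.935. Hist1h1d and Hist1h1b, read too rarely to be tested, were also highest in L1 KO 2. Hist1h1d had 9, 38 and 7 reads in L1 KO and 8, 7 and 9 in WT, and Hist1h1b had 0, 27 and 5 reads in L1 KO and 3, 8 and 6 in WT. In both, L1 KO 2 held most of the reads of its group.

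**Figure D3:**
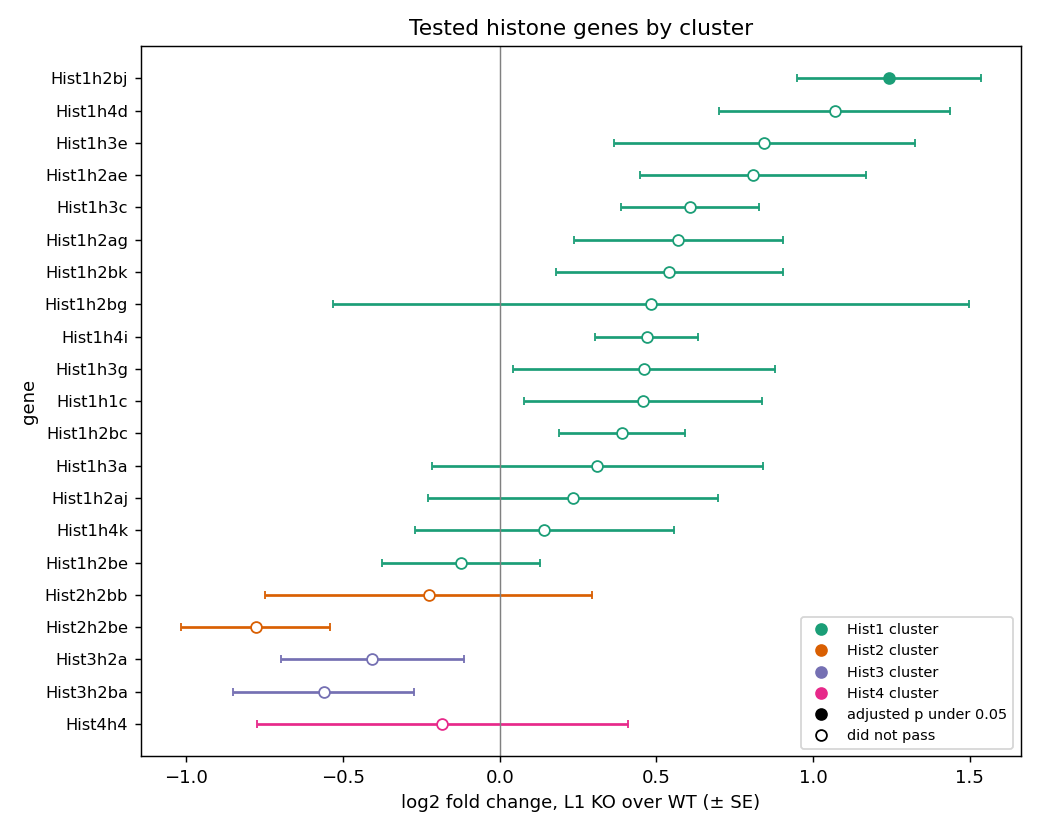
Log2 fold change of L1 KO over WT with its SE for the 21 tested histone genes, ordered within each cluster. The filled point, Hist1h2bj, passed an adjusted p under 0.05. Points of the Hist1 cluster lie right of 0 except Hist1h2be at −0.12, and the 5 points of the other clusters lie left of 0.

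By cluster the signs of the fold changes differed. In the Hist1 cluster 15 of 16 tested genes were positive and the median was 0.48 on the log2 scale. The exception was Hist1h2be at −0.12 ± 0.25. Both tested Hist2 genes, both tested Hist3 genes and Hist4h4 were negative, though Hist4h4 turned positive under the replicate block and limma-voom and without L1 KO 1 or WT 3, and Hist2h2bb without L1 KO 3, without WT 1 and without both libraries numbered 1. Signs in Hist1 turned too: Hist1h3a and Hist1h2bg were negative without L1 KO 2, at −0.34 and −0.17, Hist1h4k without L1 KO 1 and without both libraries numbered 1, at −0.05 and −0.07, and Hist1h2be was at 0.09 without both libraries numbered 1. Without a filter, 43 of 53 Hist1 genes with any read had a higher mean in L1 KO, as had 4 of 8 in Hist2 and 0 of 3 in Hist3. This split is a description of genes that share libraries and neighbours, and it was not tested. In Hist1, 13 genes had all L1 KO libraries above all WT libraries and 0 had them below, and in Hist2, 3 had them below and 0 above, most of these genes having too few reads to be tested. Over all 21048 genes with a read, 10% had L1 KO above and 11.3% below. The 3 were Hist2h2be, Hist2h3c2 and Hist2h4. Hist2h4, an H4 gene, had 9, 8 and 3 reads in L1 KO and 18, 15 and 8 in WT.

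Summed over all 70 genes the groups overlapped. The sum was 46.3, 70.8 and 60.3 CPM in L1 KO 1 to 3 and 52.8, 46.2 and 58.7 CPM in WT 1 to 3. Means were 59.1 ± 12.3 CPM in L1 KO and 52.6 ± 6.27 CPM in WT (SD, n = 3), a ratio of 1.13, smaller than the spread between libraries. Without both libraries numbered 1 the ratio was 1.25. Sums by cluster went apart: the Hist1 cluster averaged 44.0 ± 11.8 CPM in L1 KO and 29.5 ± 5.34 CPM in WT, and the Hist2 cluster 9.13 ± 1.35 CPM in L1 KO and 14.7 ± 4.25 CPM in WT. In Hist1, L1 KO 1 at 31.0 CPM lay below WT 3 at 35.3 CPM, whereas in Hist2 all L1 KO libraries, at up to 10.7 CPM, lay below the lowest WT library at 11.4 CPM. Most of the Hist2 sum was Hist2h2be.

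By class, H3 summed to 6.12 ± 1.49 CPM in L1 KO and 4.07 ± 1.21 CPM in WT, H4 to 11.7 ± 1.66 CPM in L1 KO and 8.49 ± 1.68 CPM in WT, and H2A to 10.3 ± 1.94 CPM in L1 KO and 7.80 ± 0.920 CPM in WT. In these 3 classes L1 KO 1 lay below WT 3, so the groups overlapped. H1 summed to 7.23 ± 3.98 CPM in L1 KO and 5.11 ± 0.290 CPM in WT, with L1 KO 1 at 3.07 CPM the lowest of the 6. H2B was the class with the lower sum in L1 KO, at 23.9 ± 3.53 CPM against 27.1 ± 4.47 CPM in WT, and without Hist2h2be all other genes summed to 51.8 ± 13.9 CPM in L1 KO and 40.1 ± 6.12 CPM in WT. The 49 genes too low to be tested summed to 7.74, 16 and 12.7 CPM in L1 KO and 6.00, 7.12 and 9.51 CPM in WT, with L1 KO 1 among the WT libraries.

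**Figure D4:**
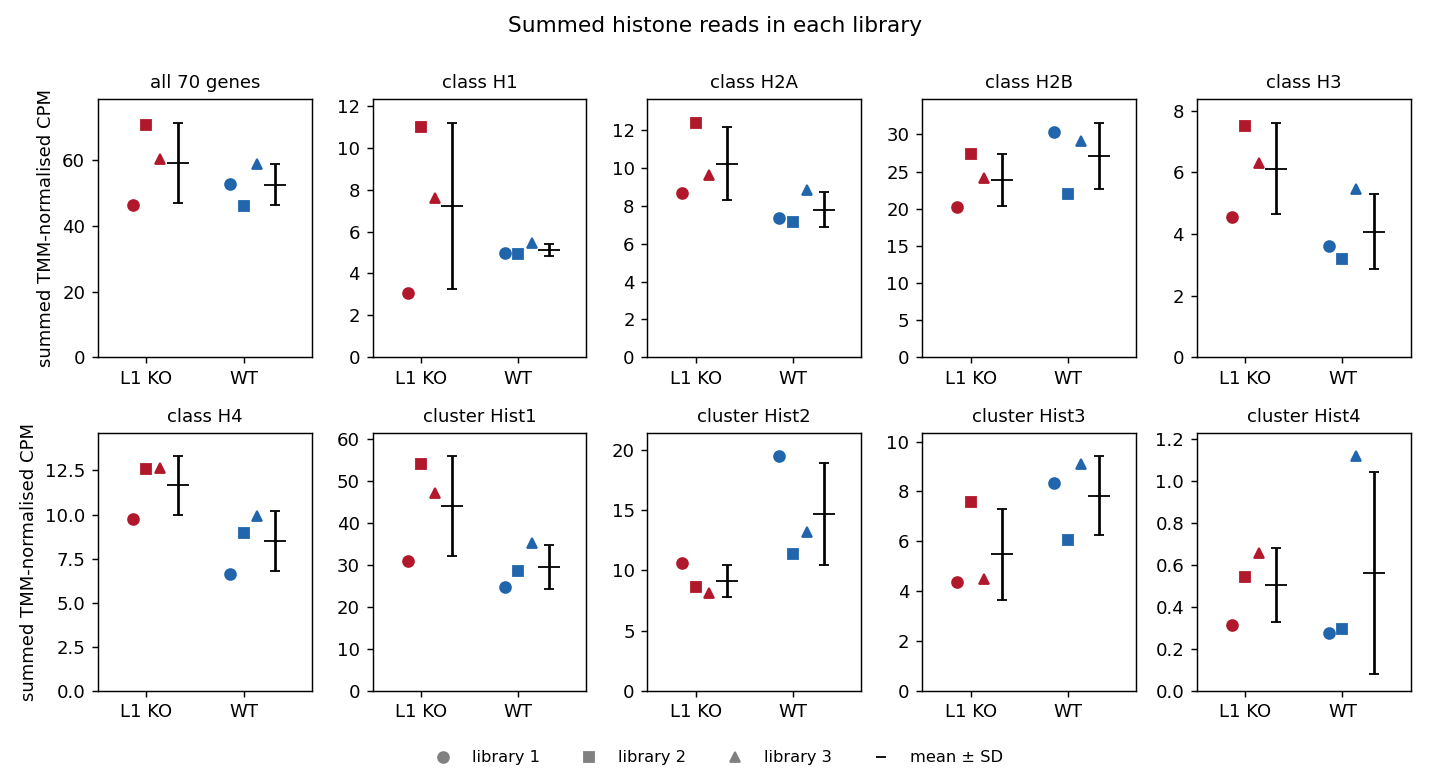
Summed TMM-normalised CPM of all 70 histone genes, of each class and of each cluster in each library, with L1 KO left of WT, 1 symbol for each library number and black bars for the mean ± SD. L1 KO libraries lie below WT libraries in the Hist2 cluster, and the groups overlap in the sum over all genes.

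Many H2A and H2B genes sit head to head and share the stretch between their starts. There were 14 such pairs with starts at most 500 bases apart, and in 2 of them both genes were tested. Hist1h2ag and Hist1h2bj, 270 bases apart, had log2 fold changes of 0.57 and 1.24. Hist1h2ae and Hist1h2bg, 176 bases apart, had 0.81 and 0.48, but the libraries of the H2B partner Hist1h2bg spread widely, with 0.350, 5.08 and 3.88 CPM in L1 KO and 0.819, 1.80 and 4.02 CPM in WT. Both libraries numbered 1 were the lowest of their group there. In the pair of Hist2h2ac and Hist2h2be, 239 bases apart, Hist2h2be had 488 reads in L1 KO and 785 in WT. Its partner Hist2h2ac, too low to be tested, had 8, 8 and 2 reads in L1 KO 1 to 3 and 1, 1 and 3 in WT 1 to 3. In CPM its groups overlapped, with L1 KO 3 at 0.146 and WT 3 at 0.153.

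Promoters of 300 bases, 250 before and 50 after the start, were taken from RefSeq for GRCm38.p6 and matched 61 of the 70 genes with 62 promoters. CCAAT or, on the other strand, ATTGG was found in 85.5% of them, against 37.4% of all 32851 promoters, and in every promoter of the H1, H2A, H2B and H3 genes but in 25% of those of H4 genes. TATAAA, in either strand, was found in 56.5%, against 13.6% of all. The octamer ATTTGCAT, known from H2B promoters as a site of the factor POU2F1, was found in either strand in 41.2% of H2A and of H2B promoters and in 1.74% of all promoters. The E2F-type letters TTTCGCGC were found in either strand in 14.5% of the histone promoters, against 0.323% of all, and the GC box GGGCGG in 38.7%, against 35.7% of all. Both differed by class. The E2F-type letters were in 29.4% of H2A and 23.5% of H2B promoters and in 0 of the other classes. The GC box was in 75% of H4, 66.7% of H1, 41.2% of H2A, 20% of H3 and 11.8% of H2B promoters. H2A and H2B partners share much of this stretch, so their matches are not separate. The 3 promoters below are those of Hist1h2bj (chr13:22042948-22043247, plus strand), Hist1h2bg (chr13:23571150-23571449, plus strand) and Hist1h4i (chr13:22041313-22041612, minus strand), shown as the gene that rose, a gene with the octamer and the H4 gene with most reads. Capitals mark the first 3 motifs, CCAAT to the octamer, in either strand.
Hist1h2bj: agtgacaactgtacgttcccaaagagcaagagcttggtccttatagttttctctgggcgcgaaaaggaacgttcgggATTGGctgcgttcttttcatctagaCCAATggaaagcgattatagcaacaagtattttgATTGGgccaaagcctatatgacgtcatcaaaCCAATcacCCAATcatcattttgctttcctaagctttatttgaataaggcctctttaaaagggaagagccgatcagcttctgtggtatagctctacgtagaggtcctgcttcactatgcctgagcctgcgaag
Hist1h2bg: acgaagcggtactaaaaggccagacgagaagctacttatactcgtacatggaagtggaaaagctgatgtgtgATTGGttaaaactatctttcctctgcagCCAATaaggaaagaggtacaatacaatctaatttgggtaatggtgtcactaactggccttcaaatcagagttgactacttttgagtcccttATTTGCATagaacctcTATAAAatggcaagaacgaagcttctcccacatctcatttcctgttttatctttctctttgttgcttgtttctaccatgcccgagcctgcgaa
Hist1h4i: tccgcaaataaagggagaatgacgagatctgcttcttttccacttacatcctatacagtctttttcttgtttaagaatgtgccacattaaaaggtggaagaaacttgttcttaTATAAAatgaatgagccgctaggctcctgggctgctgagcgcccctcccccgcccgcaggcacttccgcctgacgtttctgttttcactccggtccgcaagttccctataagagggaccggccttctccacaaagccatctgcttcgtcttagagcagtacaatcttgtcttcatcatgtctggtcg
The Hist1h2bj promoter held CCAAT in both orientations and the E2F-type letters, and no match to the other 3 motifs. That of Hist1h2bg held CCAAT, the octamer and TATAAA, and that of Hist1h4i held TATAAA and the GC box. A match is a run of letters and not a shown site of binding.

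Genes of related pathways were taken from lists, with ± standing for the SD of CPM over 3 libraries and for the SE of a log2 fold change. Of 21 genes of histone pre-mRNA processing and turnover, 0 passed in edgeR, with a median log2 fold change of 0.08. In edgeR 5 had an unadjusted p under 0.05, beside 23.4% of all tested genes. DESeq2 called 1, beside 8.90% of all tested genes, and limma-voom called 0. With the replicate block 5 rose, beside 20.3% of all tested genes called. Slbp, the gene of the stem-loop binding protein, was at 201 ± 22.8 CPM in L1 KO and 174 ± 8.67 CPM in WT, a log2 fold change of 0.21 ± 0.09 with an adjusted p of 0.196, or 0.0319 with the block. The 3 members with the smallest p were Lsm4, which encodes a ring protein that takes part in mRNA decay (0.25 ± 0.07), Cstf2, a cleavage factor gene (0.21 ± 0.07), and Cpsf3, the gene of the endonuclease that cuts histone pre-mRNA (0.21 ± 0.07). Their adjusted p were 0.0779, 0.0941 and 0.120.

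Of 15 genes of histone gene transcription, 0 passed in edgeR, 5 had an unadjusted p under 0.05, DESeq2 called 1 higher and 1 lower, and limma-voom called 0. With the block 3 rose and 3 fell, beside 20.3% of all tested genes called. An unadjusted p under 0.05 was reached by 23.4% of all tested genes in edgeR, and DESeq2 called 8.90%. Npat was at 73.0 ± 6.42 CPM in L1 KO and 75.4 ± 5.23 CPM in WT, with a log2 fold change of −0.05 ± 0.08. Ccna2, a cyclin of S phase and G2, had 0.40 ± 0.10, and Nfyb, a subunit of the factor that binds CCAAT, 0.23 ± 0.07. Pou2f1, the gene of the octamer-binding factor, had −0.26 ± 0.07. None of these 3 passed, with adjusted p of 0.0615, 0.100 and 0.0548, and all 3 did with the block, at 0.0043, 0.0161 and 0.00763.

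The replication-independent histones also did not pass: 0 of 11 in edgeR, with 4 at an unadjusted p under 0.05, 1 called by DESeq2 and 0 by limma-voom, and 2 with the block. The shares over all tested genes were 23.4% at an unadjusted p under 0.05 in edgeR, 8.90% by DESeq2 and 20.3% with the block. Cenpa, the gene of the centromeric H3 variant, had 79.3 ± 11.2 CPM in L1 KO and 60.7 ± 1.41 CPM in WT, with a log2 difference of 0.38 ± 0.10 (adjusted p of 0.0622, or 0.00909 with the block). H2afy2, a macroH2A gene, and H1fx, a linker histone variant gene, had −0.80 ± 0.32 and −0.54 ± 0.22, with adjusted p of 0.172 and 0.185. H3f3a, named after its values were seen, had −0.01 ± 0.07.

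Among 26 histone chaperone and import genes 1 rose and 1 fell, beside 2.14% and 2.43% of all tested genes, with a median log2 fold change of 0.16. Ipo5, an importin gene, had 488 ± 40.6 CPM in L1 KO and 386 ± 17.3 CPM in WT (0.34 ± 0.08, adjusted p of 0.0464). Cdan1, whose product binds the chaperone ASF1, had 119 ± 4.46 CPM in L1 KO and 144 ± 7.11 CPM in WT (−0.27 ± 0.06, adjusted p of 0.0418). Asf1b, an H3 and H4 chaperone gene, had 0.30 ± 0.09 and an adjusted p of 0.0761. Of 38 genes of S phase and DNA replication 2 rose, Cdt1 (0.30 ± 0.07) and Mcm3 (0.32 ± 0.08), and 35 of 38 were positive, with a median of 0.23. Over all tested genes 6697 of 13729 were positive, with a median of −0.01. The calls depended on the processing. Among the alternative fits, those of Ipo5 and Cdt1 were lost in 7 and kept in 8. That of Cdan1 was lost in 6 and kept in 9, and that of Mcm3 was lost in 8 and kept in 7. Gins2, the gene of a replisome subunit, had −0.21 ± 0.05 with an adjusted p of 0.0582. With the block, beside 20.3% of all tested genes called, 12 chaperone genes rose and 1 fell, and 24 S phase genes rose and 1 fell. DESeq2 called 3 chaperone genes higher and 1 lower and 14 S phase genes higher and 1 lower, beside 8.90% of all tested genes, while limma-voom called 0 of either list. In edgeR 10 chaperone genes and 21 S phase genes had an unadjusted p under 0.05, beside 23.4% of all tested genes.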

How the data were processed

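RNA was sequenced from 3 L1 KO and 3 WT samples of DN3 thymocytes. The authors deposited raw counts for each gene symbol in 1 table, made with TopHat2 and HTSeq on GRCm38 per the submitters' processing notes; library type, strand setting, annotation and versions: not given in the sources used here. HTSeq summary rows were left out: 50.4% to 51.9% of reads were assigned to no feature and 9.14% to 10.2% aligned to several places. Reads shared between near-identical histone genes are in the latter, and 36 of the 70 genes had under 50% of their 50-base windows to themselves among GENCODE M21 transcripts. All 6 columns were matched to samples by name and number, Ctrl being WT.

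The tests ran in edgeR 4.0.16 under R 4.3.3: filterByExpr (minimum count 10, minimum total 15), TMM, estimateDisp, robust glmQLFit and a two-sided quasi-likelihood F test of group, with Benjamini-Hochberg adjustment over 13729 genes. The SE is that implied by the F statistic. DESeq2 1.42.0, limma-voom 3.58.1, other scalings and filters, a replicate block and left-out libraries were alternatives. The procedure was tested on simulated data. Deviations from the group means correlated across genes at 0.60, 0.20 and 0.39 between same-numbered libraries, each above the threshold of 0.1 used for pairs. Deviations sum to 0 within a group, so a match of the libraries numbered 1 alone tends to make the other values positive. L1 KO 2 correlated better with WT 3, at 0.27, and WT 2 better with L1 KO 3, at 0.34. Passing the threshold therefore does not show that the libraries numbered 2 or 3 are pairs. The labels name no shared litter or day, so the fit without the block is the one reported and values with it stand beside calls it changes. The members and lists were chosen with earlier results of these data known. Named are Rpl22l1, histone genes past the threshold, the 3 with most CPM and 2 with the smallest p of each class, of each list the 3 with the smallest p, besides Slbp and Npat; Hist1h2bg, Hist1h2be, Hist1h2bk, Hist1h2bl, Hist1h4k, Hist2h2bb, Hist2h4, Hist2h3c2, Hist2h2ac, Trim17, H3f3a, H2afz, Klf2, Ccr9, Cd4, Cd79b, Ighm, Pax5 and Ms4a1 were added after their values were seen, as were transcript ends as a grouping. The 3-read floor covers counting error only, since reads lacking molecular identifiers are not independent molecules.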

Additional observations from a re-analysis of the deposited data

How the results depend on the processing

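Hist1h2bj kept its positive direction under all 15 alternatives, and Rpl22l1 kept its fall and its call under the same 15. The number of histone genes higher in L1 KO, 1 in the reported fit, was 0 with limma-voom, 0 without robust fitting, 3 with the replicate block, 4 without both libraries numbered 1, and 0 to 4 with a single library left out. The number lower, 0 in the reported fit, was 1 with DESeq2, 1 with the replicate block, 1 without both libraries numbered 1, and 0 to 1 with a library left out. The 4 called higher without L1 KO 1, and again without both libraries numbered 1, were Hist1h1c, Hist1h2ac, Hist1h2bj and Hist1h4n, and the 1 called lower was Hist2h2be. Hist1h2ac and Hist1h4n had too few reads to be tested in the reported fit. Hist1h2ac had 9, 20 and 9 reads in L1 KO and 4, 2 and 4 in WT. Hist1h4n had 2, 16 and 8 in L1 KO and 1, 1 and 3 in WT. Both passed the count filter of those fits only through the L1 KO libraries, where they were high, so their calls are no support for a rise. The median log2 fold change of tested histone genes, 0.46, was 0.58 with no count filter (65 genes), 0.33 with limma-voom, 0.67 without both libraries numbered 1 and 0.10 to 0.76 with a library left out, lowest without L1 KO 2. Over all genes 628 were called, against 1037 with no count filter, 1222 with DESeq2, 2785 with the replicate block and 2881 without both libraries numbered 1; leaving out 1 library gave 109 to 2177. The causes were not tested. The log2 ratio of summed histone counts, 0.17, was 0.02 to 0.32 with a library left out, 0.32 without both libraries numbered 1, 0.18 with DESeq2 size factors and 0.14 with library size alone. Of the 70 genes, 52 stayed under 10 reads in at least 4 libraries, and 49 had too few reads to be tested.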

Other observations

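Among the 21 tested histone genes, deviations from the group means correlated at 0.61 between the libraries numbered 1, at −0.06 between those numbered 2 and at 0.48 between those numbered 3, across genes that are not independent replicates. With unlike numbers, L1 KO 2 and WT 3 correlated at 0.43 and L1 KO 3 and WT 2 at 0.14.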
